A study of Saccharomyces cerevisiae with 16 samples.

Results

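The report concerns yeast that carried the same human sequence in opposite orders on an otherwise identical artificial chromosome. The 4 samples used were the H3K4me3 CUT&RUN samples titled synHPRT1 YAC and synHPRT1R YAC, taken by title, 2 of each, out of the 16 samples of the series and out of its 8 H3K4me3 samples. Both strains were BY4741 derivatives (MATa, lacking functional *HIS3*, *LEU2*, *MET17* and *URA3*), and both held the locus in the same centromere-bearing vector with *LEU2* as its marker, grown at 30 °C in synthetic medium without leucine. In synHPRT1 the locus was human *HPRT1* with its surroundings, and in synHPRT1R its bases ran in the opposite order on the same strand, not complemented. Each strain was 1 strain, and its 2 samples came from separate colonies, so the values below measure spread between colonies and libraries and not between independently built strains.

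H3K4me3, trimethylation of lysine 4 of histone H3, is laid down in yeast by Set1 within the COMPASS complex, which travels with RNA polymerase II early in transcription, so that the mark sits over the beginnings of transcribed genes. In CUT&RUN an antibody against the mark directs a nuclease to it and the released fragments are sequenced. Reversal keeps every base and every run of a single base, but it breaks the reading frames, splice sites and most factor motifs of the original, and it exchanges CG for GC pairs, so that the CG-poor human sequence becomes CG-rich. The comparison therefore asks how the mark lies on a sequence and on its reverse in the same nucleus, and whether the host genes carry the mark alike in both strains.

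The pairs below show what reversal did at places where H3K4me3 peaks had their summits. Each is 61 bases with the summit of the named library in the middle, written 5′ to 3′ on the contig strand, CG pairs in capitals. The synHPRT1R sequence was read from the segments listed by the study, and the synHPRT1 line is that sequence read backward, as the design has it. The first pair surrounds a synHPRT1R summit (YAC 1, position 36561, 36531 to 36591) over which neither synHPRT1 library had a peak at the mirrored base.
synHPRT1R, 36561: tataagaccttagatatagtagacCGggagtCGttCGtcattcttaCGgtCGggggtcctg
synHPRT1, mirrored: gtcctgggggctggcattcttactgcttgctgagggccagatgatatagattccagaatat
The other pair lies under peaks of both constructs, around the synHPRT1 summit at 93244.
synHPRT1, 93244: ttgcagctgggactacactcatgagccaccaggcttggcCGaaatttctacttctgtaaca
synHPRT1R, mirrored: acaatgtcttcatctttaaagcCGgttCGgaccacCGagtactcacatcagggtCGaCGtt
In each of these windows the synHPRT1R reading held 5 CG pairs, and the synHPRT1 reading held 0 and 1, while the A and T content of a window is by construction the same in both. They show 1 summit of each construct, the first without and the other with a peak on the opposite construct. Over all 13 such windows that the listed sequences held, some of them overlapping between replicates, the synHPRT1R reading had 1 to 8 CG pairs and the synHPRT1 reading 0 to 3, with more in synHPRT1R in 12 and fewer in 1. Reversal raises the number of CG pairs over the locus as a whole, so these counts do not set summits apart from other places.

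The peak lists held 4049 and 3964 peaks in synHPRT1 YAC 1 and 2 and 3463 and 3939 in synHPRT1R YAC 1 and 2, and files of read totals were not used here. The background that most nuclear peaks of a library shared, a stand-in for depth, was 85.4, 92.7, 98.9 and 78.6 fragments in the same order, so that the library with the fewest peaks had the highest background. synHPRT1R YAC 1 stood apart: its centred log2 fold enrichment across genes correlated with the other 3 libraries at 0.738 to 0.797, as a description, whereas the 3 others reached 0.898 to 0.907 with their nearest library. Its median nuclear fold enrichment was 1.86 against 2.04, 2.04 and 2.16. The identifiers inside its peak list also name another colony and a library number far from the rest. Results that rest on it are given with and without it.

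Fragments over locus peaks were several times denser than over host peaks in both orientations, and at the summits the orientations differed by less than the spread between libraries. The median locus summit carried 9.21 and 8.99 times the genome-wide background in the synHPRT1 libraries and 8.70 and 9.31 times in the synHPRT1R libraries, against 1.94 to 2.31 times for the median nuclear summit. The 2 synHPRT1R values lay on either side of the synHPRT1 ones. The log2 difference, synHPRT1R minus synHPRT1, was -0.016 (exact two-sided permutation test, p = 1.00, n = 2 and 2), where the smallest p this design can give is 0.333. The sign of so small a difference depended on the scale, as 0.012 was obtained relative to the median nuclear summit. The level around the peaks gave another picture. The median local background under locus peaks was 4.96 and 5.215 times the genome-wide one in synHPRT1 and 5.67 and 5.46 times in synHPRT1R, with no overlap between the groups, a log2 difference of 0.13 (exact two-sided permutation test, p = 0.333, the smallest possible). Leaving out any 1 library left it between 0.09 and 0.17. The median fold enrichment of a locus peak over that background was 1.83 and 1.74 in synHPRT1 and 1.47 and 1.54 in synHPRT1R. How many copies of the YAC a cell held cannot be read from these files, and its part in these levels was not tested.

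**Figure D1:**
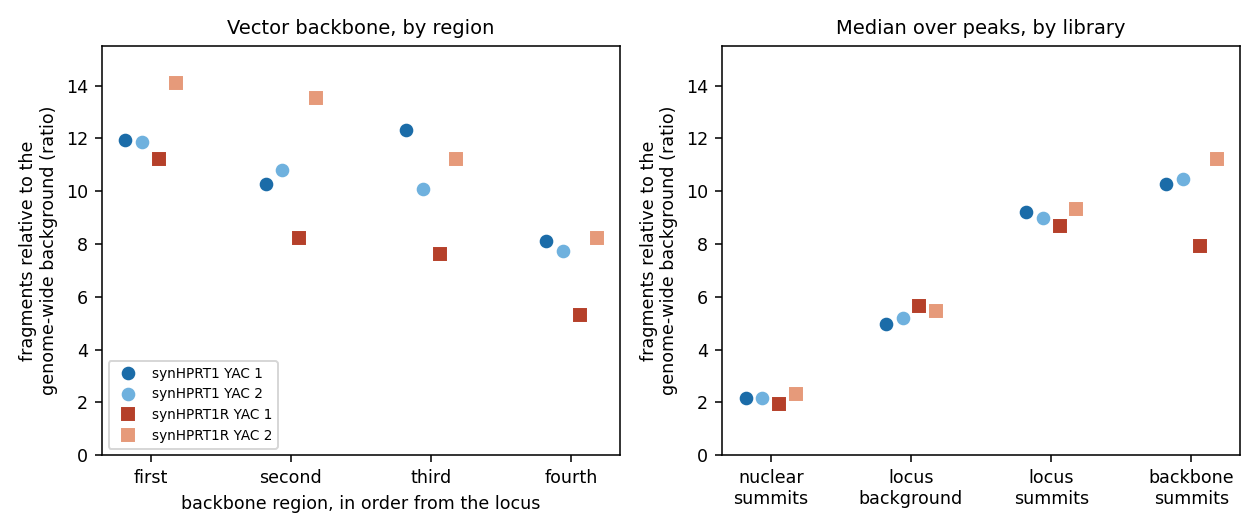
Fragments relative to the genome-wide background of the library (ratio, linear axis from 0). Left, the summit of each of the 4 vector backbone regions in each library. Right, medians over nuclear summits, over locus backgrounds, over locus summits and over backbone summits. Circles are synHPRT1 and squares synHPRT1R libraries, and the darker shade is replicate 1. synHPRT1R YAC 1 is the lowest in all 4 backbone regions (5.30 to 11.2), whereas the locus background is higher in both synHPRT1R libraries (5.46 and 5.67) than in both synHPRT1 libraries (4.96 and 5.215).

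The vector backbone, identical in both strains, carried the same 4 H3K4me3 regions in all 4 libraries. It served as an internal reference, since its sequence was not reversed. The first region crossed the right junction of the locus and had its summit at contig position 100905, 170 bp into the vector, in every library. Its fold enrichment was 2.46 and 2.60 in synHPRT1 and 2.46 and 2.99 in synHPRT1R. The second had summits within 8 bp of each other, from 103955 to 103963, with fold enrichments of 2.196, 2.50, 2.00 and 3.001 in the same order of libraries. The next region outward spanned about 105205 to 107720 and was called as 1 peak in 3 libraries and as 2 in synHPRT1R YAC 2, with fold enrichments of 2.94, 2.74, 2.14 and 2.78 and summits that differed by up to 849 bp. The outermost, about 110295 to 113928, gave 2.71, 3.06, 2.13 and 2.96. In each of the 4 regions the synHPRT1R YAC 1 value was the lowest or equal lowest and the other synHPRT1R library lay among or above the synHPRT1 values. A further weak peak (109670 to 109925, 1.34-fold) was called in synHPRT1 YAC 1 alone.

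In fragments relative to the genome-wide background, the median backbone summit was 10.3 and 10.5 in synHPRT1 and 7.92 and 11.2 in synHPRT1R. The log2 difference was -0.14 (exact two-sided permutation test, p = 1.00). It was 0.12 without synHPRT1R YAC 1 and -0.39 without synHPRT1R YAC 2, so its direction rests on 1 library. By region the log2 differences were 0.08, 0.003, -0.27 and -0.26 from the locus outward, and the groups overlapped in all 4. None of the 4 integrated libraries of the series had a backbone peak. In those strains the locus between the lox sites was moved into chromosome XI without the vector, so this follows from their design.

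Locus peaks were next compared at mirrored positions, reading a synHPRT1R position p as 100735 minus p, so that the same bases lie on top of each other. Peaks with a summit in the vector, among them the one across the right junction, were left out. Peaks of replicate 1 of which replicate 2 covered at least 50% formed the set of a construct. These were 54 of 58 synHPRT1 peaks (93.1%) and 37 of 46 synHPRT1R peaks (80.4%). Of the 54 synHPRT1 peaks, 23 (42.6%, 95% exact binomial interval 29.2 to 56.8, counting error only) had a mirrored synHPRT1R peak over at least 50% of their length. Without mirroring 25 (46.3%) did, and 39.3% of all locus bases lay under the synHPRT1R set. Of the 37 synHPRT1R peaks, 17 (45.9%, 29.5 to 63.1) had a mirrored synHPRT1 partner, 15 (40.5%) had one without mirroring, and 41.2% of bases lay under the synHPRT1 set. In both sets the interval of the mirrored share held the unmirrored share and the share of bases covered.

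This too differed between the synHPRT1R libraries. Taken singly, all peaks counted, the synHPRT1 libraries had mirrored partners in synHPRT1R YAC 1 for 48.3% and 45.8% of their peaks, against 46.6% and 47.5% without mirroring. In synHPRT1R YAC 2 they had partners for 62.1% and 55.9%, against 43.1% and 40.7% without mirroring and 41.8% of bases covered. By summits, the mirrored share was the higher with either library. Of the 58 summits of synHPRT1 YAC 1, 20 (34.5%) lay within 200 bp of a mirrored summit of synHPRT1R YAC 1 and 22 (37.9%) of one of synHPRT1R YAC 2, and unmirrored these were 13 (22.4%) and 12 (20.7%). For synHPRT1 YAC 2 the mirrored shares were 33.9% and 35.6% and the unmirrored ones 25.4% and 18.6%. Between replicates 81.0% of synHPRT1 summits and 65.2% of synHPRT1R summits met that distance, and the median distances were 7 and 114 bp. The median distance between constructs was 413.5 to 693 bp mirrored and 399.5 to 706 bp unmirrored. These shares are descriptions, as neighbouring peaks of 1 molecule are not replicates.

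**Figure D2:**
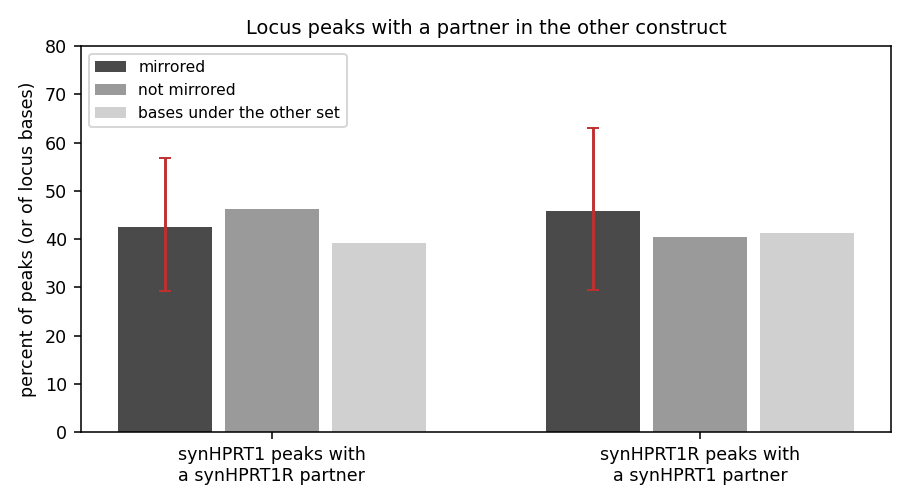
Percent of the reproducible locus peaks of each construct that had a partner over at least 50% of their length in the other construct, with positions mirrored (dark) and not mirrored (mid grey), beside the percent of locus bases under the other set (light). Red bars are 95% exact binomial intervals of the mirrored share. Mirrored shares of 42.6% and 45.9% stand beside unmirrored ones of 46.3% and 40.5%.

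Several strong peaks nevertheless occupied the same bases in both orders. Ranked by the lower of the replicate 1 values, the first mirrored pair was the synHPRT1 peak at 43382 to 44044, with 2.19- and 1.95-fold enrichment in the 2 libraries. The synHPRT1R peak over its mirrored place (56691 to 57353) had 2.26- and 3.19-fold enrichment, the highest locus values of those libraries. The next were 95625 to 96620 (2.29 and 2.25 in synHPRT1, 2.11 and 2.22 in synHPRT1R) and 36637 to 38391 (2.17 and 1.95, 1.88 and 2.30). The peak at 98952 to 99458 had 1.87 and 2.05, and 2.11 and 1.51 opposite. The peak at 83446 to 84893 had 2.48 and 2.21, and 1.84 and 2.48 opposite. The last, 71829 to 73297, had 2.21 and 2.08, and 1.84 and 2.36 opposite. The pairs at 95625 and 98952 lie opposite a single 4837-bp peak of synHPRT1R YAC 1, the widest locus peak of any library, so they are not separate events there. Sharing bases did not mean sharing a summit. Summits lay within 200 bp of each other in 11 of the 23 pairs by replicates 1, in 10 by replicates 2 and in 8 by both. In the first pair the synHPRT1R summits (57687 and 57817) fell outside the mirrored span, 588 and 718 bp from the synHPRT1 summits. They were 1 and 129 bp from the mirrored summits of the neighbouring synHPRT1 peak at 42525 to 43143 (1.83- and 1.69-fold), which the same synHPRT1R peak also covered. In the pair at 36637 the summits were 522 bp apart. Closer agreement, picked out after the values were seen, was found at 68089 to 69265, where mirrored summits were 10 bp apart in replicates 1 and 5 bp in replicates 2, and at 35470 to 36054, where they were 39 and 27 bp apart.

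**Figure D3:**
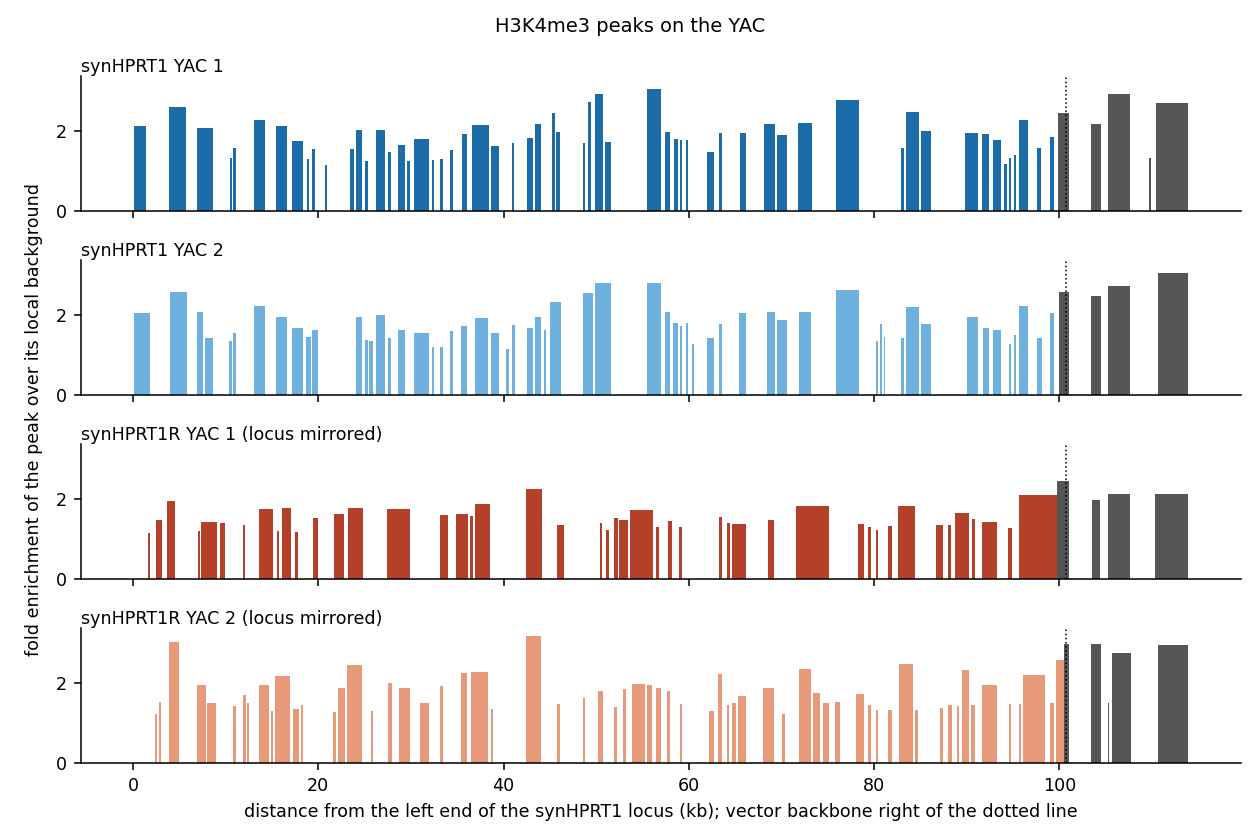
H3K4me3 peaks along the YAC in each library, with distance from the left end of the synHPRT1 locus in kb on the x axis and fold enrichment over the local background on the y axis (linear, from 0). Each bar spans a peak. Locus peaks of synHPRT1R were mirrored so that the same bases align, and backbone peaks (grey, right of the dotted line) were not. The backbone bars line up in all 4 libraries, and the synHPRT1R bar opposite 43382 to 44044 reaches 3.19 in YAC 2 and 2.26 in YAC 1.

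Other strong peaks had little or no cover in the other orientation. Among synHPRT1 peaks whose partner covered under 50%, the 4 with the highest enrichment began with 49869 to 50733, 2.94- and 2.82-fold in the 2 libraries, where synHPRT1R peaks of 1.42- and 1.82-fold covered 23.4% of its length, with summits 176 bp away in both replicates. The peak at 75843 to 78423 had 2.80 and 2.64, and synHPRT1R peaks covered 4.07% of it. The 330-bp peak at 49145 to 49474 had 2.75 and 2.55, and no synHPRT1R peak touched its mirrored place in either library. The peak at 3876 to 5750 had 2.62 and 2.59, and lay opposite a synHPRT1R peak of 1.97- and 3.03-fold that covered 35.1% of it. In all, 14 of the 54 synHPRT1 peaks (25.9%) met no locus peak of either synHPRT1R library, and 32 met one in both. Among these 14, the peak at 78 to 1433 lay opposite the junction peak of both synHPRT1R libraries, which was counted with the backbone.

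In the other direction, 8 of the 37 synHPRT1R peaks (21.6%) met no peak of either synHPRT1 library. The 4 unpartnered synHPRT1R peaks of highest enrichment, 2.11- to 1.77-fold in YAC 1, were broad (1599 to 4837 bp). Each is also the partner of 1 or more narrower synHPRT1 peaks counted as mirrored pairs, including those at 95625, 98952 and 71829, since cover is taken as a share of the peak in question. They were covered to between 38.7% and 41.5% by synHPRT1 locus peaks, just under the limit. The widest of them (mirrored to 95682 to 100518, 38.7%) also lay opposite the junction peak of both synHPRT1 libraries. That peak, from 99887 and 99924, was counted with the backbone, so calling the widest one unpartnered rests on this placing. The strongest that met none at all, again picked after the values were seen, lay at 77937 to 79081, with 1.63- and 1.89-fold enrichment. Along the locus in steps of 10 kb of the synHPRT1 order, peaks covered 56.0% and 53.1% of bases from 30 to 40 kb in synHPRT1 against 41.9% and 41.0% in synHPRT1R. From 80 to 90 kb the order was the opposite, 29.6% and 33.5% against 48.6% and 38.6%. Over the whole locus the 4 libraries covered 43.3%, 45.1%, 45.7% and 42.0% of bases.

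The study inserted the *Schizosaccharomyces pombe* *his5* gene, which lets such cells grow without histidine, at named positions tied to starts of transcription it had identified, and its oligos give the bases on both sides. Of these 8 positions, all 4 in synHPRT1 lay inside an H3K4me3 peak of both synHPRT1 libraries: 13493 (2.28- and 2.24-fold), 56086 and 56401 (the same peak, 3.07- and 2.81-fold) and 93086 (1.78- and 1.63-fold). At the mirrored bases of synHPRT1R only the last was under a peak in both libraries (1.44- and 1.95-fold), 56086 was under one in YAC 1 alone (1.73-fold), and the others were 8 to 158 bp away from the nearest peak. The joined homology arms of 2 of the oligo pairs, 80 bases with the insertion point after base 40, are shown for a position under the highest peak of synHPRT1 YAC 1 and for a synHPRT1R position outside any peak.
HPRT1 56086: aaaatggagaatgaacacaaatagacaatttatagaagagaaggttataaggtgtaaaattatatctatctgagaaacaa
HPRT1R 37903: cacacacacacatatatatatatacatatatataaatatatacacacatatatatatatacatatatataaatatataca
Of the 4 positions in synHPRT1R, only 78135 lay inside a peak of both libraries (1.63- and 1.89-fold), and its left arm is not shown because its 40 bases also occur in another segment. Position 21797 was 29 and 4 bp from the nearest peak in YAC 1 and 2, position 88545 was 50 and 36 bp away, and position 37903 was 394 and 110 bp away. No synHPRT1 library had a peak at the mirrored base of any of these 4, with the nearest peak 118 to 1497 bp away. The arms at 37903 were 85.0% A and T, the highest of the 8, and those at 56086 were 73.8%.

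The segment list gives the first 399 bases of 27 segments of synHPRT1R, 10.7% of the locus, which allowed a description of composition. In synHPRT1R, 8 stretches lay at least 50% under peaks in both libraries, with a median A and T content of 53.6% (41.1 to 63.2) and a median of 22 CG pairs (14 to 33). The 8 stretches with no base under a peak in either library had 65.0% (57.9 to 74.7) and 10.5 CG pairs (6 to 20). In synHPRT1 the same stretches read backward hold fewer CG pairs. The 6 covered stretches had 57.5% A and T (30.1 to 61.9) and a median of 3 CG pairs (1 to 40). The 9 without a locus peak had 63.2% (41.1 to 74.7) and also 3 (0 to 6). Among these 9, segment 1 (41.1% A and T, 5 CG pairs read backward) lay under the junction peak of both synHPRT1 libraries, which was counted with the backbone. The median A and T content of covered stretches was thus the lower in both orders, with overlapping ranges. The median number of CG pairs was higher in covered stretches of synHPRT1R. Its equality in synHPRT1 rests on placing segment 1 among the stretches without a peak. This is a description over few stretches, with no test, and CG pairs and A and T content vary together. Segment 20, the poorest in A and T (30.1%), was wholly under a peak in both synHPRT1 libraries and 0 and 32.1% under peaks in synHPRT1R.

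At host genes no difference between the strains passed the test. Of 6002 protein-coding genes on the 16 nuclear chromosomes, 2211 (36.8%) had a peak summit from 200 bp upstream to 800 bp downstream of the annotated start in all 4 libraries, and 1685 (28.1%) in none. The 2211 genes gave 2124 features, since neighbours that shared the same peaks were counted once. With limma on centred log2 fold enrichment and Benjamini-Hochberg adjustment, 0 features were higher (0%) and 0 lower (0%) in synHPRT1R, the lowest adjusted p being 0.708. At an unadjusted p under 0.05, 41 (1.93%) were higher and 56 (2.64%) lower. The median interval of a difference reached 0.257 to either side on the log2 scale, a 1.19-fold change, and 2123 of the 2124 estimated differences were smaller than 0.5. The difference between the constructs on the YAC was also set against that in the integrated strains, and 0 of 1849 features (0% in each direction) differed by limma's test of the interaction, with 105 and 107 at an unadjusted p under 0.05. The gene of highest enrichment, YLR162W on chromosome XII, had 14.6, 12.8, 13.1 and 13.3.

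**Figure D4:**
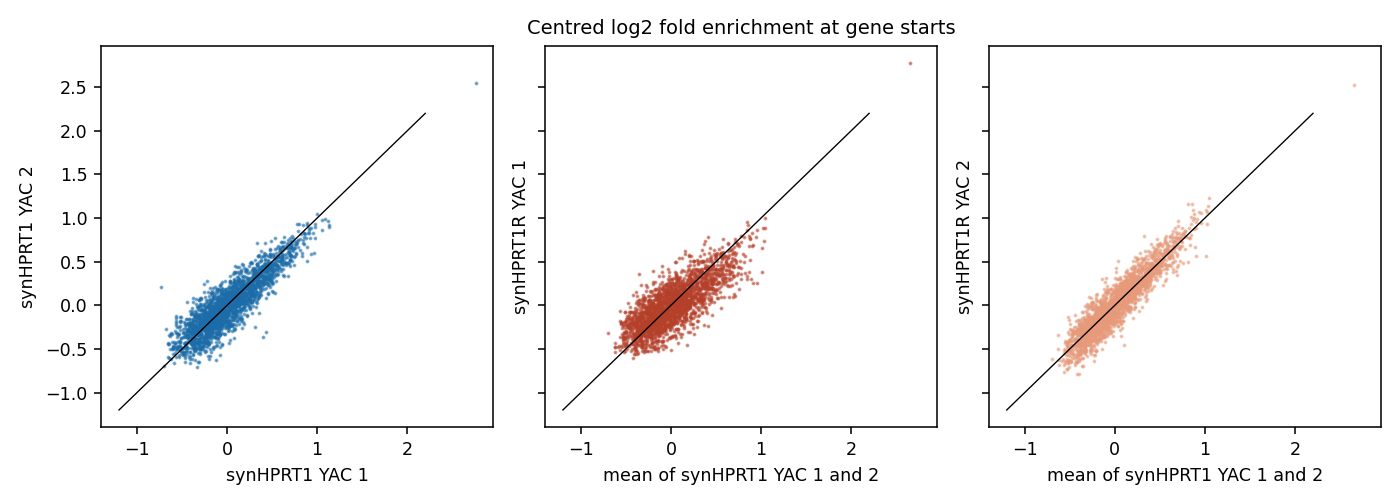
Centred log2 fold enrichment at 2124 gene features. Left, the 2 synHPRT1 libraries against each other. Middle and right, synHPRT1R YAC 1 and YAC 2 against the mean of the synHPRT1 libraries. The line marks equal values. Points of synHPRT1R YAC 1 spread more widely (correlations with the other libraries 0.738 to 0.797) than those of YAC 2 (up to 0.907).

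Most host differences that could be called with 1 library left out lay in synHPRT1R YAC 1. With that library as the only reversed one, its spread assumed to equal that of the others, limma called 38 features higher (1.71% of 2219) and 75 lower (3.38%). With YAC 2 as the only one, it called 1 higher (*NUP85*) and 1 lower (the Ty1 frames YPR137C-B and YPR137C-A) of 2616. The genes in the next sentences were named after their values were seen. *HMRA1*, the silent copy of the a1 mating-type gene, had 2.46 in YAC 1 against 1.46 and 1.99 in synHPRT1, and 1.91 in YAC 2. These strains are MATa, so reads of the active a1 gene can map to *HMRA1*, and its peak cannot be credited to the silent copy. Among those lowest, *CCR4*, a subunit of the main mRNA deadenylase, had 2.29 in YAC 1 against 4.24 and 4.20 in synHPRT1 and 4.45 in YAC 2. *UME6*, a repressor of meiotic genes, had 2.06 against 3.65, 3.46 and 4.50. *NOP1*, the nucleolar fibrillarin, had 1.88 against 3.29, 3.13 and 3.89. In *CCR4*, *UME6* and *NOP1* the 2 synHPRT1R libraries lay on opposite sides of the synHPRT1 values in these uncentred fold enrichments. The limma fit used centred ones, and there YAC 2 lay between the synHPRT1 values in *CCR4*.

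Of the 8 genes per direction with the lowest unadjusted p, none of which passed, those higher in synHPRT1R were led by *CCT8* (chromosome X, 419957 to 421663), a subunit of the chaperonin that folds actin and tubulin. Its fold enrichment was 1.83 and 2.24 in synHPRT1 and 2.62 and 2.79 in synHPRT1R, without overlap, a log2 difference of 0.46 ± 0.13 (SE, limma adjusted p = 0.708). *CDC10*, a septin of the bud neck (chromosome III, 117380 to 118348), had 1.82 and 1.96 against 2.53 and 2.32 (0.41 ± 0.13, limma adjusted p = 0.992). The other 6 were YKL063C, *EMP65*, *HMRA1*, *SAD1*, which acts in splicing, *YPT6*, a Rab GTPase, and *BIM1*, which binds microtubule ends, with log2 differences of 0.33 to 0.40. *HMRA1* and *BIM1* overlapped between the groups in uncentred fold enrichment, and after centring *HMRA1* alone did.

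The genes lower in synHPRT1R were led by open reading frames of Ty1 retrotransposons, which lie in many near-identical copies so that short reads cannot be assigned to 1 copy with certainty. YPR137C-B on chromosome XVI had 4.72 and 4.09 in synHPRT1 and 2.50 and 3.42 in synHPRT1R, a log2 difference of -0.54 ± 0.15 (SE, limma adjusted p = 0.708). YJR029W had 4.11 and 4.06 against 2.30 and 3.42 (-0.49 ± 0.14, limma adjusted p = 0.742). YPR158W-B, YAR010C and YOL103W-B, also frames of Ty1, had -0.43, -0.41 and -0.36. *STM1*, whose product binds ribosomes, had 3.51 and 3.30 against 2.05 and 3.08, *MRP2*, of the mitochondrial ribosome, 2.30 and 2.28 against 1.59 and 1.92, and *VIR1*, a protein of the mRNA methylation complex, 2.36 and 2.18 against 1.59 and 1.90. All 8 showed no overlap between the groups.

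**Figure D5:**
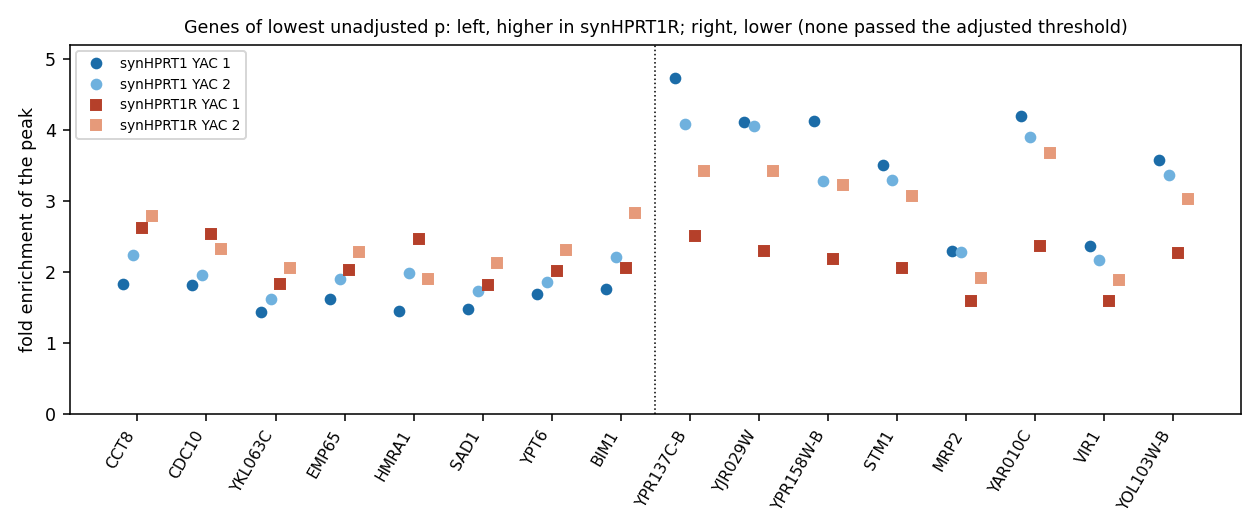
Fold enrichment in each library for the 8 genes per direction with the lowest unadjusted p, higher in synHPRT1R on the left and lower on the right of the dotted line (linear axis from 0). Circles are synHPRT1 and squares synHPRT1R libraries, and the darker shade is replicate 1. None passed the adjusted threshold. YPR137C-B had 4.72 and 4.09 in synHPRT1 and 2.50 and 3.42 in synHPRT1R.

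Frames of Ty elements were therefore counted as a set, a choice made after these values were seen, with no test. All 21 Ty features among the 2124 had a negative difference, where 1037 of all 2124 were above 0, and 13 of the 21 had an unadjusted p under 0.05, where 2.64% of all features were lower at that p, with a median of -0.29 on the log2 scale against -0.004 over all features. They share sequence and are not independent of each other. Their median centred log2 fold enrichment was 0.711 and 0.612 in synHPRT1 and 0.261 and 0.493 in synHPRT1R. With any 1 library left out the median was between -0.34 and -0.21. Without synHPRT1R YAC 1 it was -0.24, with 33 of 35 features negative, and without YAC 2 it was -0.33, with 20 of 21. The number of Ty copies in each strain was not measured, and its part in this was not tested.

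Of the gene lists used to read the host response, no member passed limma's adjusted threshold in either direction, as no feature did. The first lists concern leucine, which the medium lacked, and methionine, uracil and histidine, for which the strains lack a functional gene. In leucine and branched-chain amino acid synthesis 9 of 16 genes had a peak in all 4 libraries, with a median log2 difference of -0.07, and *BAT1*, an aminotransferase of the pathway, had 2.91 and 2.87 in synHPRT1 and 2.55 and 3.48 in synHPRT1R. Methionine and sulfur metabolism gave 9 of 20 and -0.09, and uracil and histidine synthesis 9 of 17 and 0.08. *MET4*, the activator of the sulfur genes, had 3.30 and 3.18 against 2.80 and 3.09.

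Genes of the machinery behind the mark itself also lay close to the median of all features. COMPASS and H2B ubiquitination had 9 of 18 genes with a peak in all 4 libraries and a median of -0.004, with values from -0.24 for *LGE1*, a cofactor of H2B ubiquitination, to 0.21 for *CTR9*, of the Paf1 complex. *BRE1*, the ubiquitin ligase for H2B, had 2.94 and 2.71 in synHPRT1 and 2.31 and 3.20 in synHPRT1R. Chromatin remodelling had 11 of 23 and -0.02. Genes that handle the YAC as a chromosome were similar, with kinetochore and cohesin at 10 of 16 annotated genes and 0.03 and origin licensing at 10 of 16 and -0.005. *SMC1*, a cohesin subunit, had 2.34 and 2.47 against 1.99 and 2.83, and *ORC3*, of the origin recognition complex, 2.64 and 2.73 against 2.02 and 2.85.

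Ribosomal protein genes, the largest list, had 58 of 132 members with a peak in all 4 libraries, a median of -0.04 and 1 member lower at an unadjusted p under 0.05. *RPL4B* had 4.47 and 4.32 in synHPRT1 and 3.03 and 4.91 in synHPRT1R. Glycolysis and fermentation gave 7 of 20 and -0.08, heat shock and chaperones 9 of 23 and -0.05, iron and copper 7 of 16 and -0.06, cell wall 5 of 22 annotated genes and -0.02, stress-response regulators 3 of 16 and -0.03, DNA damage response 3 of 15 and 0.07, and phosphate 1 of 13 and -0.04. The housekeeping genes had 4 of 10 and -0.09, with *ACT1* at 2.00 and 1.93 in synHPRT1 and 1.37 and 2.31 in synHPRT1R. The galactose list had 0 of 7 annotated genes and the histone list 0 of 10 with a peak in all 4 libraries. In *RPL4B*, *ACT1*, *SMC1* and *BRE1* alike, synHPRT1R YAC 1 was the lowest and YAC 2 the highest of the 4 libraries, so the groups overlapped.

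Markers of strain and mating type were read against the labels. *URA3*, *HIS3* and *MET17*, which BY4741 lacks in functional form, had no peak in any of the 4 libraries. *LEU2* is carried by the vector, and its reads can map to its chromosomal place. It had 4.68 and 4.29 in synHPRT1 and 3.85 and 5.41 in synHPRT1R, a log2 difference of 0.07 with an interval from -0.26 to 0.40. Of the a-specific genes *STE6* had peaks in all 4 libraries, *STE2* and *MFA2* in 1, and *MFA1*, *BAR1*, *AGA2* and *ASG7* in none. *AXL1*, listed with them but not restricted to a cells, also had peaks in all 4. Of the 5 alpha-specific genes *MF(ALPHA)1*, *MF(ALPHA)2* and *SAG1* had none, *STE3* had a peak in 1 library and *AFB1* in the 2 synHPRT1 libraries (1.59- and 1.61-fold).

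Finally, the nuclear peaks of the 4 libraries were merged into 3825 regions, of which 2874 were called in each of the 4. A peak in both synHPRT1R libraries and in neither synHPRT1 library was found in 27 regions (0.706%), and the reverse in 49 (1.28%). These were weak peaks. The lower of the 2 −log10 q values had a median of 3.55 and 4.07 in the respective sets against 13.7 for the lowest of 4 in regions shared by all, and 1 region of each set reached 10. The strongest in synHPRT1R alone lay at the start of *PRP9*, a splicing factor (chromosome IV, 397411 to 397695, 1.84- and 2.15-fold), followed by regions in or at *NEJ1*, of DNA end joining, *PTI1*, *MRI1*, *TOP2*, which encodes topoisomerase II, and *MKS1*. The strongest in synHPRT1 alone lay in the Ty frames YCL019W and YCL020W (chromosome III, 85267 to 85620, 1.79- and 1.93-fold), followed by YJR115W, *SNM1*, *ATP10*, *GLC3*, which makes branches in glycogen, and *CSR2*. Most were called elsewhere in the series: 23 of the 27 and 44 of the 49 had a peak in at least 1 integrated library. Which count was the larger depended on the processing, as the 3000 strongest peaks of each library gave 59 regions for synHPRT1R alone and 33 for synHPRT1 alone. With 1 library left out the counts were 53 and 133, 146 and 147, 78 and 79, and 120 and 268, without synHPRT1 YAC 1, synHPRT1 YAC 2, synHPRT1R YAC 1 and synHPRT1R YAC 2 respectively.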

How the data were processed

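H3K4me3 CUT&RUN peak lists of the 4 YAC libraries of *Saccharomyces cerevisiae* were analysed, with the 4 integrated ones beside them where named. The 8 IgG samples were not analysed here. For synHPRT1 YAC replicate 2 the source name gives synHPRT1R, but its title, genotype and contig give synHPRT1, which was followed. Per the methods and the labels, the authors trimmed reads with Trimmomatic, aligned read pairs with Bowtie2 2.2.9 to sacCer3 with the construct as a separate contig, and called peaks per library with MACS2 2.1.0, keeping duplicates and naming no control. The deposited lists give each peak's fold enrichment, a ratio to its local background, p-values and q-values as −log10, and a score, which was not used. With no control, dense or repeated DNA can be called, a raised local background lowers the fold, and reads that fit several copies are uncertain.

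Whole fragments over a summit and its background were solved from fold and p, which matched the deposited −log10 p within 0.02 for all peaks but 1. The background shared by 61.3% to 66.6% of nuclear peaks of a library was taken as genome-wide. Since the lists hold no read totals, precision comes from the spread between libraries. Starts of genes were read from RefSeq's annotation of that build (0 peaks lay past a chromosome end). A gene took the highest fold among peaks with a summit from 200 bp upstream to 800 bp downstream of its start, which can be different peaks of a gene in different libraries, was tested where all 4 libraries had one, and was fitted with limma 3.58.1 (R 4.3.3, trend) on median-centred log2 fold, with Benjamini-Hochberg adjustment at 0.05. Per-library medians were compared by exact permutation (scipy 1.17.1). Named genes were up to 8 per direction by p, since none passed, and list members of highest mean fold. Also named were up to 6 regions per direction, every backbone peak, 6 mirrored pairs, 4 unpartnered peaks per construct and 8 oligo positions. Segment positions were set from segment lengths and overlaps in the study's list. Their offset from the left end of the contig, 34 bp, was read from 1 oligo with a named position. The same offset was assumed at the right end, and neither was checked independently. limma and the fragment recovery were tested on simulated data. Members and lists were chosen with earlier results of these data known. Some sequences at peak summits are not reported here.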

Additional observations from a re-analysis of the deposited data

Results flagged for a closer look

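Peaks on the mitochondrial chromosome, which entered no comparison above, numbered 23 and 37 in synHPRT1 YAC 1 and 2 and 36 and 27 in synHPRT1R YAC 1 and 2. Their median local background was 1.79, 2.55, 2.09 and 1.79 times the genome-wide one. The groups overlapped in both measures.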

How the results depend on the processing

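The counts of 0 genes higher and 0 lower were the same without centring, with quantile normalization, with fragments in place of fold, with only the peaks whose −log10 q reached 10, in a narrower window around the start, and with all 8 samples in the fit. Left-out libraries gave 0 to 38 higher and 0 to 75 lower, the highest without synHPRT1R YAC 2, with synHPRT1R YAC 1 alone for its group. With replicate number as a block (the replicate block) 0 were higher and 0 lower. The numbers share no stated origin, and deviations of same-numbered libraries correlated at -0.175. With the numbers crossed, an alternative added after the data were seen, the counts were 0 and 0. Regions in 1 group alone fell to 1 for synHPRT1R and 1 for synHPRT1 where presence required a −log10 q of at least 10, became 59 for synHPRT1R and 33 for synHPRT1 with the 3000 strongest peaks per library, which turns the order of the 2 counts, and ranged with 1 library left out from 53 to 146 for synHPRT1R and from 79 to 268 for synHPRT1. The backbone difference ranged from -0.387 to 0.117 with 1 library left out, turning positive without synHPRT1R YAC 1 (0.117). The locus summit difference ranged from -0.0658 to 0.0333, positive without synHPRT1 YAC 1 (0.00162) or synHPRT1R YAC 1 (0.0333), and was 0.0117 on the scale of nuclear peaks. The locus background difference kept its direction in all 7 alternatives. Mirrored shares in single library pairs were 45.8% to 62.1% for synHPRT1 and 47.8% to 61.9% for synHPRT1R, and for synHPRT1R became 75.7% where 1 bp of overlap sufficed and 27.0% where 80% was required, beside unmirrored shares of 73.0% and 13.5%. Of 189 values of 17 named genes under the alternatives 176 were the same, 11 passed the threshold with 1 synHPRT1R library, and *LEU2* turned to -0.0018 without synHPRT1 YAC 2 and to -0.0386 without synHPRT1R YAC 2, within a left-out range up to 0.186. The causes were not tested. Having 2 libraries per group limits every comparison here.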
